A study of Mus musculus with 4 samples.

Results

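The ionocyte genes of the mimetic program in thymic epithelium are described here. They were chosen by name, as the 7 members Foxi1, Foxi2, Ascl3, Cftr, Atp6v1b1, Atp6v0d2 and Bsnd of the 54532 genes in the deposited count table, and each name matched 1 gene. Ionocytes are rare epithelial cells that move protons, chloride and bicarbonate across airway, kidney and inner ear epithelium. A subset of medullary thymic epithelial cells adopts a similar program, one of several mimetic programs by which the medulla displays transcripts of peripheral cell types to developing T cells. The forkhead factor Foxi1 directs ionocyte and intercalated cell differentiation, and the products of its program include the vacuolar proton pump (V-ATPase) and chloride channels, which together acidify or hydrate the epithelial surface.

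RNA was sequenced from thymic epithelial cells of C57BL/6 mice in 4 libraries, 1 per group. The groups were mTEC (medullary cells, sorted as Ly51− UEA1+) of SCD1 knockout mice, mTEC of littermate controls labelled WT, cTEC (cortical cells, sorted as Ly51+ UEA1−) of SCD1 knockout mice and cTEC of littermate controls. The sources used here do not give the knockout allele, the age of the mice or the number of mice per library. With 1 library per group no test was made, no difference has a replicate check, and every 95% interval below covers counting error only.

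The libraries held 15740383 to 18151725 reads assigned to genes, so that 1 read was worth 0.0569 to 0.0654 CPM (reads scaled to library size and composition). Scd1, the targeted desaturase gene, had 278 reads in knockout mTEC and 1310 in control mTEC, and 73 in knockout cTEC and 325 in control cTEC. All 11 cTEC markers examined were at least 2-fold lower in mTEC than in cTEC in each genotype, and 8 of 9 mTEC markers at least 2-fold higher. Thymocyte markers differed between genotypes in both populations: their 13 genes summed to 261 CPM in knockout mTEC and 215 in control mTEC, and to 391 CPM in knockout cTEC and 303 in control cTEC. The 11 cTEC markers were likewise above 0 in knockout over control, in mTEC as in cTEC. Endothelial markers, 7 genes, summed to 39.7 CPM in knockout mTEC and 30.0 in control mTEC, and to 32.1 CPM in knockout cTEC and 19.9 in control cTEC, with Cldn5 in mTEC and Cdh5 in cTEC past the size rule described below. The log2 ratio of these sums was 0.40 in mTEC and 0.69 in cTEC, against 0.28 and 0.37 for the thymocyte markers. The part of these differences in the genotype values below was not tested.

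RefSeq promoter windows on the build GRCm38.p6 matched 5 of the 7 genes, Foxi1, Foxi2, Ascl3, Cftr and Atp6v1b1. The 250 bases before the start of 4 of them are printed. They span the range of base composition in the group and hold the only match to TGTTTAC, the 1 forkhead sequence searched. The positions are chr11:34208090-34208339 (minus strand) for Foxi1, chr7:109731733-109731982 (minus) for Ascl3, chr6:18170437-18170686 (plus) for Cftr and chr6:83742767-83743016 (plus) for Atp6v1b1. Capitals mark matches to the forkhead core TGTTTAC or to TATAAA, on either strand.
Foxi1: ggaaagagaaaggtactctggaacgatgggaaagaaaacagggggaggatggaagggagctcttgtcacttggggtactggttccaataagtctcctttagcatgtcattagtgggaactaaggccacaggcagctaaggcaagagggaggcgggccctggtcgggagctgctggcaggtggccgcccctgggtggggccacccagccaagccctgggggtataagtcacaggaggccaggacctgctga
Ascl3: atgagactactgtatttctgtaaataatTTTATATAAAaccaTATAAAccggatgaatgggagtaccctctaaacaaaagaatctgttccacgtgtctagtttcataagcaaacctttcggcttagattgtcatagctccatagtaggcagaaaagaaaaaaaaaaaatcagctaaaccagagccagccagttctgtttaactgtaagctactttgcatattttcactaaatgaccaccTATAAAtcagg
Cftr: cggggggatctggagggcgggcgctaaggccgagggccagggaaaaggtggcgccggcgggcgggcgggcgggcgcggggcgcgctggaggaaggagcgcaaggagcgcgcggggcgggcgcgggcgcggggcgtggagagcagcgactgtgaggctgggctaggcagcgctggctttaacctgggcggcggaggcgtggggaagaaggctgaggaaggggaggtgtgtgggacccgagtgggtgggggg
Atp6v1b1: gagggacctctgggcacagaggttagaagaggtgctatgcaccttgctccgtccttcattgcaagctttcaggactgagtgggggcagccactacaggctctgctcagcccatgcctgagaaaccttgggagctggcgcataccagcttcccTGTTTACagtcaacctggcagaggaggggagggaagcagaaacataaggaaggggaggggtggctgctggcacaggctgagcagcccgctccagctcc

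The Cftr window was 76.4% G and C with 30 CpG pairs, a higher share than in most of the 32851 windows (median 52.4%), and the Ascl3 window 34.8% with 3. Foxi1, Foxi2 and Atp6v1b1 lay between, at 58.8%, 56.8% and 59.6%. TGTTTAC occurred in the Atp6v1b1 window, 98 to 92 bases before the start, and in 3.17% of all windows. TATAAA occurred in the Ascl3 window at 4 places, of which a pair on opposite strands overlap, and in 12.4% of all windows. The E-box CAGCTG, which factors of the Ascl family can bind, was in none of the 5 windows and in 13.0% of all windows. A match in these letters is a description of the sequence and not a measured binding site.

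The comparison of mTEC with cTEC asked where the ionocyte transcripts were found. In each genotype all 7 genes stood above 0 in mTEC over cTEC. The same held for 56.4% of all genes with at least 1 read in the knockouts and 57.7% in the controls. Together the 7 genes had 653 reads in knockout mTEC and 577 in control mTEC, against 121 in knockout cTEC and 97 in control cTEC. In CPM these sums were 37.2 and 33.9 in mTEC and 6.90 and 6.35 in cTEC, a 5.37-fold difference in the knockouts and 5.31-fold in the controls. In bulk RNA, more cells of a type and more RNA per cell cannot be told apart, and the libraries do not show whether the 7 transcripts came from the same cells.

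**Figure D1:**
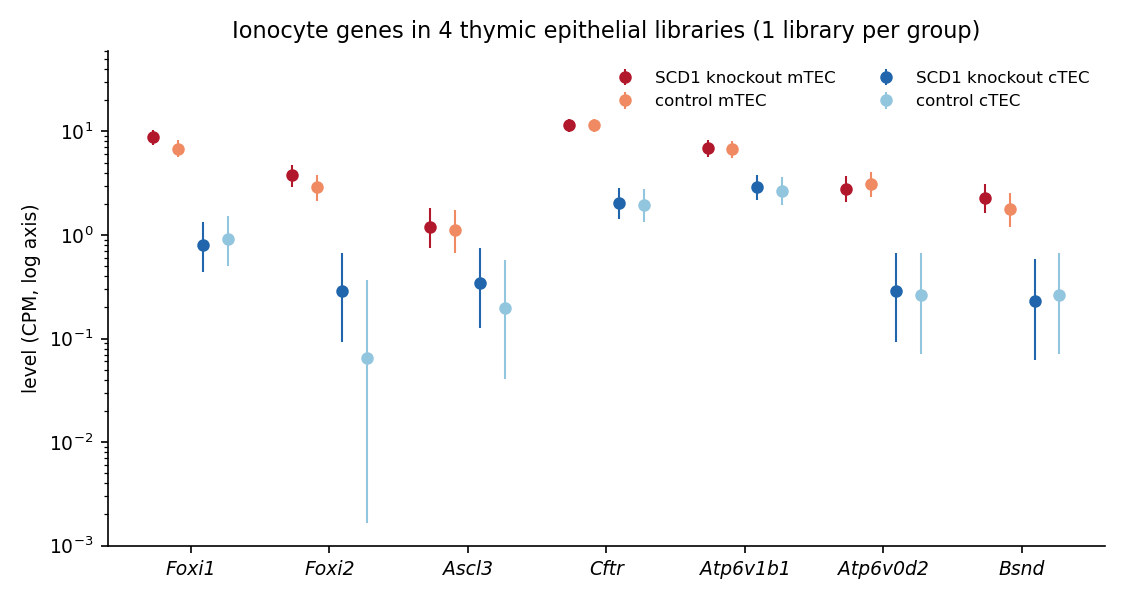
Level of each gene in CPM on a log axis, with 1 point per library and bars for the exact 95% Poisson counting interval. For each gene and genotype the mTEC point lies above the cTEC point, with Foxi2 in control cTEC resting on 1 read.

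Foxi1, the forkhead factor at the head of the program (ENSMUSG00000047861, mm10 chromosome 11, 34204338 to 34208089), had 154 reads in knockout mTEC and 116 in control mTEC, against 14 in each cTEC library. Its level was 8.77 CPM in knockout mTEC and 0.799 in knockout cTEC, and 6.81 CPM in control mTEC and 0.916 in control cTEC. The log2 ratio of mTEC over cTEC was 3.41 in the knockouts (2.67 to 4.36) and 2.85 in the controls (2.09 to 3.81).

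Foxi2, a second member of the Foxi family (ENSMUSG00000048377, chromosome 7, 135410308 to 135413622), had 66 and 49 reads in knockout and control mTEC, against 5 and 1 in knockout and control cTEC. In mTEC over cTEC its log2 ratio was 3.59 in the knockouts (2.42 to 5.39) and 4.89 in the controls (2.91 to 10.79), the second against a single read. With a prior count of 2 reads in place of 0.5, the control ratio was 3.93. Per length, Foxi1 stood at 3.72 RPKM (CPM per kilobase of the deposited gene length) in knockout mTEC and Foxi2 at 1.41, a 2.63-fold difference in level. In control mTEC the levels were 2.89 and 1.08 RPKM, 2.67-fold apart. Foxi3, the remaining family gene, had 13 and 8 reads in knockout and control mTEC and 0 in both cTEC libraries. Against a floor of 3 reads in the cTEC library it was 4.32-fold higher in knockout mTEC and 2.39-fold higher in control mTEC. These ratios leave out the counting error of the mTEC reads.

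Ascl3, a basic helix-loop-helix factor of ionocytes and of salivary duct cells (ENSMUSG00000035951, chromosome 7, 109727465 to 109731726), was the gene with the fewest mTEC reads, 21 in the knockout and 19 in the control, against 6 in knockout cTEC and 3 in control cTEC. The mTEC libraries were the higher ones in both pairs, with wide intervals, at log2 ratios of 1.72 (0.45 to 3.40) in the knockouts and 2.32 (0.74 to 4.91) in the controls.

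Cftr, the apical chloride and bicarbonate channel that airway ionocytes express strongly (ENSMUSG00000041301, chromosome 6, 18170687 to 18322768), had the most mTEC reads of the 7, 202 in the knockout and 195 in the control, against 36 in knockout cTEC and 30 in control cTEC. The log2 ratios of mTEC over cTEC were 2.47 (1.97 to 3.04) in the knockouts and 2.52 (1.98 to 3.15) in the controls. Its gene body overlaps an antisense gene and a pseudogene, which had 2 reads in all 4 libraries together.

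Atp6v1b1, the B subunit of the V-ATPase that intercalated cells use at the plasma membrane (ENSMUSG00000006269, chromosome 6, 83742990 to 83758855), had 121 and 115 reads in knockout and control mTEC, against 51 and 41 in knockout and control cTEC. It was higher in both mTEC libraries, yet its level per length was also the highest of the 7 genes in both cTEC libraries, at 0.664 RPKM in the knockout and 0.612 in the control. The log2 ratios of mTEC over cTEC were 1.24 (0.76 to 1.74) in the knockouts and 1.32 (0.80 to 1.88) in the controls.

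Atp6v0d2, a d subunit of the membrane sector of the pump that osteoclasts and macrophages also use (ENSMUSG00000028238, chromosome 4, 19876841 to 19922605), had 49 and 53 reads in knockout and control mTEC, against 5 and 4 in knockout and control cTEC. The mTEC library was again the higher one in each genotype, by log2 ratios of 3.17 (1.97 to 4.97) in the knockouts and 3.41 (2.13 to 5.50) in the controls. Of 12 macrophage and dendritic cell markers, 10 stood above 0 in mTEC over cTEC in each genotype, as did 56.4% of all genes with at least 1 read in the knockouts and 57.7% in the controls. Their summed level was 480 CPM in knockout mTEC and 314 in knockout cTEC, and 448 CPM in control mTEC and 305 in control cTEC, with none at 0. By the size rule described below, 5 of the 11 macrophage and dendritic cell markers with enough reads were higher in knockout mTEC and none lower. In the controls 8 of 11 were higher and 1 lower. Of all genes with enough reads, 19.8% were higher in the knockouts and 19.0% in the controls. Of 7 osteoclast markers, 5 stood above 0 in each genotype. By the rule 3 of the 4 with enough reads were higher in each genotype, and none lower. Calcr had 137 and 104 reads in knockout and control mTEC, against 1 in each cTEC library, and Ctsk had 104 and 82, against 29 and 28 in knockout and control cTEC. Ocstamp had 16 and 3 reads in knockout and control mTEC and 0 in both cTEC libraries. The sum of the 7 was carried by Mmp9 and was 236 CPM in knockout mTEC and 249 in knockout cTEC, and 221 CPM in control mTEC and 236 in control cTEC. The part of these cells in the Atp6v0d2 value was not tested.

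Bsnd, which encodes barttin, an accessory subunit of chloride channels (ENSMUSG00000025418, chromosome 4, 106483456 to 106492283), had 40 and 30 reads in knockout and control mTEC, against 4 in each cTEC library. The log2 ratios of mTEC over cTEC were 3.17 (1.85 to 5.26) in the knockouts and 2.60 (1.25 to 4.72) in the controls. The intervals exclude 0 in each genotype, on few cTEC reads.

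A size rule counted a gene when the pair of libraries held at least 50 reads, the ratio was at least 2-fold and the counting interval excluded equality. In mTEC against cTEC, 19.8% of 15962 genes were higher by this rule in the knockouts and 19.0% of 15747 in the controls, and 8.96% and 8.53% were lower. Foxi1, Foxi2, Cftr, Atp6v1b1 and Atp6v0d2 were counted in both genotypes. Ascl3 and Bsnd fell under 50 reads, with 27 and 44 in the knockout pair and 22 and 34 in the control pair. Because these 5 genes reached the minimum mostly through their mTEC reads, where they are higher, their count is a description. On the cTEC side only Atp6v1b1 in the knockout had 50 reads, with 51. With no minimum of reads, all 7 met the other conditions in both genotypes, against 19.2% of genes with at least 1 read in the knockouts and 18.4% in the controls. Those backgrounds include genes with too few reads to meet the conditions.

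The 7 genes were not alike in how far they reached into cTEC. The cTEC level of Atp6v1b1 was 42.2% (29.8 to 59.1) of its mTEC level in the knockouts and 39.8% (27.1 to 57.2) in the controls, and that of Cftr 17.9% (12.2 to 25.6) and 17.2% (11.3 to 25.3). Foxi1 stood at 9.11% (4.87 to 15.8) in the knockouts and 13.5% (7.13 to 23.5) in the controls. Among the 21 pairs of genes, the mTEC over cTEC ratios differed with an unadjusted counting interval excluding 0 for 8 pairs in the knockouts and 4 in the controls. The 4 found in both genotypes set Atp6v1b1 against Foxi1, Foxi2, Cftr and Atp6v0d2, and Atp6v1b1 had the lower ratio in each. Its difference from Cftr was 1.23 on the log2 scale in the knockouts (0.54 to 1.93) and 1.20 in the controls (0.45 to 1.96).

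For reference, cTEC held 2.67% and 2.97% of the mTEC level of the medullary regulator Aire in the knockouts and the controls, and 11.3% and 15.2% of that of Fezf2. How far mTEC in the cTEC sort took part in the cTEC reads of the ionocyte genes was not tested. Defining factors of other mimetic cells spread widely. Spib, of microfold cells, stood in cTEC at 6.89% of its mTEC level in the knockouts and 6.57% in the controls, Pou2f3, of tuft cells, at 55.3% and 55.6%, and Foxj1, of ciliated cells, at 70.6% and 85.5%. Of 15 such factors, 12 had enough reads for the size rule in the knockouts and 10 in the controls. By the rule 6 were higher in mTEC in each genotype and 1, Trp73, was lower. Of all genes with enough reads, 19.8% were higher in the knockouts and 19.0% in the controls.

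**Figure D2:**
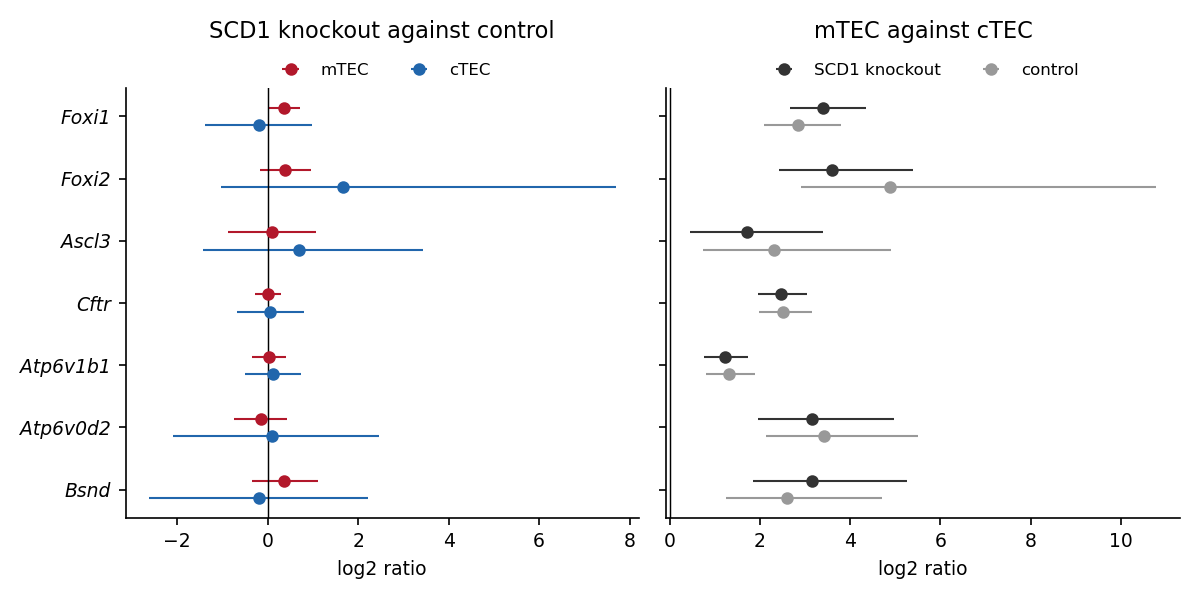
Log2 ratio of each gene with its 95% counting interval, for SCD1 knockout against control in mTEC and cTEC (left panel) and for mTEC against cTEC in each genotype (right panel). All intervals on the right lie above 0, and on the left only that of Foxi1 in mTEC does, by a small margin.

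Between genotypes, the comparison asked whether the ionocyte transcripts differed without SCD1, which makes oleic acid. None of the 7 genes met the size rule in mTEC, where 0.935% of 16466 genes did, and 6 of the 7 had the 50 reads needed. In cTEC, where 1.20% of 14445 genes met it, only Cftr and Atp6v1b1 had enough reads, and neither met it. The reads of all 7 together gave a log2 ratio of knockout over control of 0.13 (−0.03 to 0.30) in mTEC and 0.12 (−0.28 to 0.52) in cTEC, both with intervals that include 0. The median ratio of the 6 genes with enough reads in mTEC was 0.20, against 0.01 over all genes with enough reads.

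Foxi1 in mTEC had the interval farthest from equality, with a log2 ratio of 0.36 (0.01 to 0.73), 1.29-fold higher in the knockout. An interval above 0 at any size was found for 7.11% of the 33109 genes with at least 1 read in this pair, some with too few reads for it. With upper-quartile scaling the lower bound for Foxi1 was −0.0047. Foxi2 stood at 0.38 (−0.17 to 0.95) and Bsnd at 0.37 (−0.35 to 1.10) in mTEC, with intervals that include 0. Cftr was at 0.01 (−0.28 to 0.30), a sign that turned to −0.0057 with upper-quartile scaling, and Atp6v1b1 at 0.03 (−0.35 to 0.41). Atp6v0d2 was at −0.16 (−0.75 to 0.43) and Ascl3 at 0.10 (−0.87 to 1.08). For Cftr the mTEC interval spans 0.821-fold to 1.23-fold, so that differences beyond that range are outside its counting error, whereas for Ascl3 it spans 0.549-fold to 2.11-fold.

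In cTEC the ratio of knockout over control was 0.06 (−0.67 to 0.81) for Cftr and 0.11 (−0.50 to 0.75) for Atp6v1b1. The other 5 genes had between 1 and 14 reads in each cTEC library, and a 2-fold difference in either direction was inside the interval of 4 of them. For Foxi1 the cTEC interval was −1.38 to 0.98. The difference between the mTEC and cTEC ratios had an interval that included 0 for each of the 7 genes, from −0.80 to 0.69 for Cftr and from −0.54 to 1.67 for Foxi1.

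Atp6v1b1 and Atp6v0d2 are tissue-restricted forms of subunits that nearly every cell makes in another form, so the rest of the pump was examined. Of 18 genes of general subunits and accessory proteins, 1 was at least 2-fold higher in mTEC by the size rule in each genotype, Atp6v0e2, and none lower. Over all genes with enough reads, 19.8% were higher and 8.96% lower in the knockouts, and 19.0% and 8.53% in the controls. The median log2 ratio of mTEC over cTEC of these genes was −0.26 in the knockouts and −0.15 in the controls, against −0.08 and −0.06 over all genes with 50 reads. Atp6v1b2, the general B subunit, had 1985 and 1832 reads in knockout and control mTEC, against 2319 and 1731 in knockout and control cTEC. Atp6v0d1, the general d subunit, had 1499 and 1368 in knockout and control mTEC, against 1815 and 1545 in knockout and control cTEC. Neither general form was higher in mTEC by the size rule.

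Per length, Atp6v1b1 made up 6.87% of the level of the B1 and B2 pair in knockout mTEC and 2.59% in knockout cTEC, and 7.06% in control mTEC and 2.79% in control cTEC. Atp6v0d2 made up 2.11% of the d subunit pair in knockout mTEC and 0.182% in knockout cTEC, and 2.49% in control mTEC and 0.171% in control cTEC. Among the other restricted subunits, Atp6v0a4, the a subunit of intercalated cells, had 107 and 81 reads in knockout and control mTEC, against 5 and 3 in knockout and control cTEC. Its log2 ratio of mTEC over cTEC was 4.29 (3.15 to 6.07) in the knockouts and 4.38 in the controls, where the interval ran up to 6.91. Atp6v1g3, a G subunit of kidney, had 37 and 41 reads in knockout and control mTEC, against 5 and 2. These were too few for the size rule in either genotype. Of the 5 other restricted subunits, 3 had enough reads in each genotype. By the rule 1 of these 3, Atp6v0a4, was higher in mTEC in each genotype, and none lower. Among all genes with enough reads the share that was higher was 19.8% in the knockouts and 19.0% in the controls. Atp6v1c2 and Atp6v1g2 did not meet the rule in either genotype, with ratios of 0.38 and −0.39 in the knockouts and 0.91 and −0.07 in the controls, and Atp6v1e2 had at most 2 reads in any library.

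**Figure D3:**
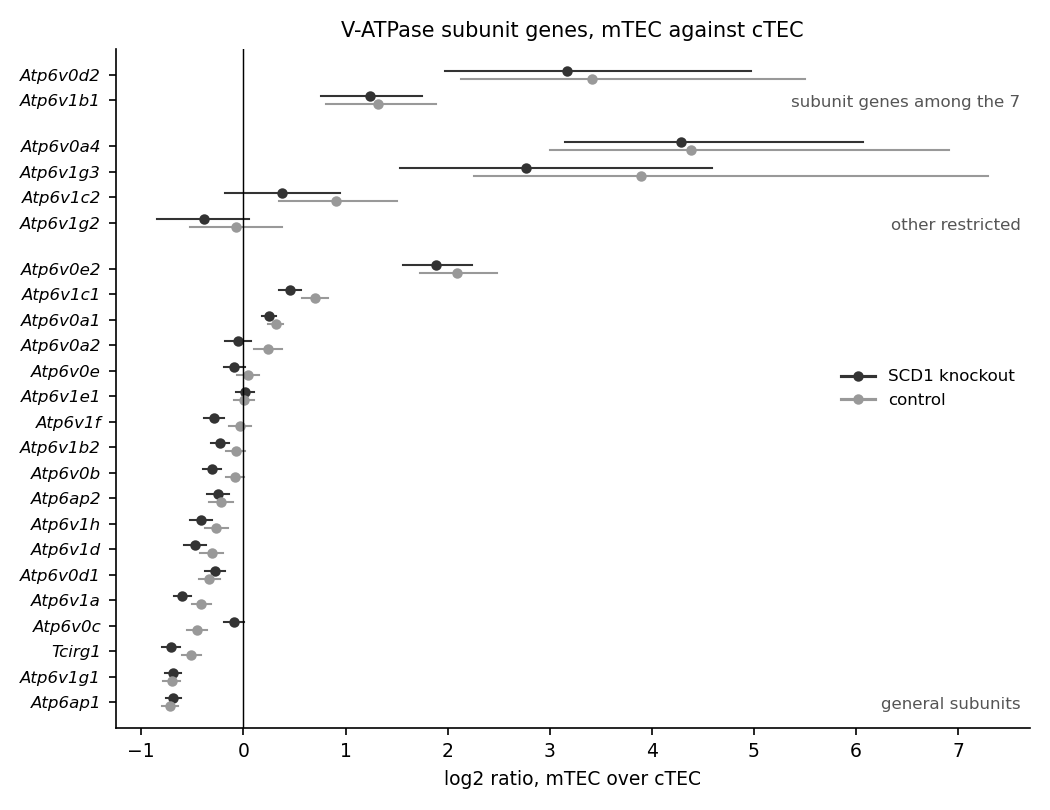
Log2 ratio of mTEC over cTEC for V-ATPase subunit genes with 95% counting intervals, in SCD1 knockout and control libraries, without Atp6v1e2. The restricted subunits Atp6v0a4, Atp6v1g3, Atp6v0d2 and Atp6v1b1 lie to the right, and the general subunits other than Atp6v0e2 lie between −0.72 and 0.70.

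Further genes of airway ionocytes and kidney intercalated cells were read from a list of 26 without the 7. In mTEC over cTEC the interval lay above 0 for 21 of the 26 in each genotype, against 26.8% of genes with at least 1 read in the knockouts and 26.3% in the controls. Those backgrounds include genes with too few reads for such an interval. By the size rule 14 of the 26 were higher in the knockouts and 15 in the controls, and none lower, of 23 and 22 with enough reads. The exchangers of both classic intercalated cell types were among them. Slc4a1, the basolateral anion exchanger of acid-secreting cells, had 123 and 82 reads in knockout and control mTEC, against 2 and 3 in knockout and control cTEC. Slc26a4 (pendrin) and Slc4a9, exchangers of base-secreting cells, had 118 and 114 and 154 and 114 reads in knockout and control mTEC, against 6 and 11 and 14 and 12 in knockout and control cTEC. The log2 ratio of Slc4a1 over these few cTEC reads was 5.62 in the knockouts, with a lower bound of 4.06, and 4.40 (3.02 to 6.92) in the controls.

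Slc4a1 is also the band 3 gene of red cells, and 5 red cell genes, mostly globins, summed to 187 and 165 reads in knockout and control mTEC, against 24 and 16 in knockout and control cTEC. Of these, Hba-a2 and Hbb-bt were at 0 in both cTEC libraries. The part of red cells in the Slc4a1 value was not tested. Car2, the cytosolic carbonic anhydrase that intercalated cells share with red cells, had 151 and 133 reads in knockout and control mTEC, against 15 and 4. Aqp6, the water channel of intercalated vesicles, had 44 and 34 reads in knockout and control mTEC, against 4 in knockout cTEC and 0 in control cTEC. At a floor of 3 cTEC reads it was 10.2-fold higher in control mTEC, a ratio that leaves out the counting error of the mTEC reads. Insrr, a receptor that senses alkaline fluid, had 371 and 397 reads in knockout and control mTEC, against 23 and 25, and Hepacam2, a marker of intercalated cells, 328 and 352, against 38 and 24.

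Not all listed genes followed this order. Dmrt2, a factor of acid-secreting intercalated cells, had 2525 and 2406 reads in knockout and control mTEC, against 2466 and 2105 in knockout and control cTEC, a log2 ratio of 0.03 and 0.04. Tfcp2l1, a factor needed for the patterning of intercalated cells in the kidney, stood at 0.10 and 0.11. Slc26a7 stood at −0.48 and −0.32 and Asgr1 at 0.12 and −0.72. Rhbg, an ammonia transporter gene, was higher in mTEC, but 60.5% of its 50-base windows occur in an overlapping gene model, so its reads are uncertain. Between genotypes, none of the 26 met the size rule in either population, with medians of 0.01 in mTEC and 0.07 in cTEC over the 24 and 14 with enough reads, against 0.01 over all genes in each.

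**Figure D4:**
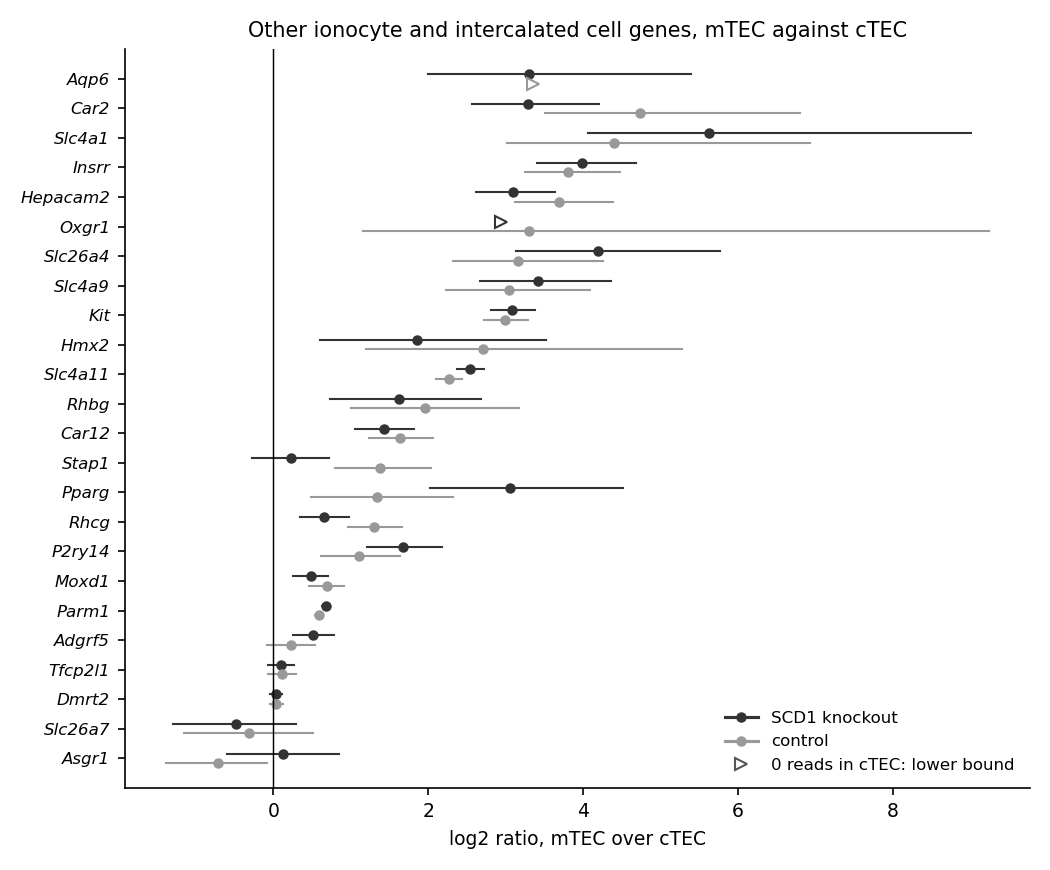
Log2 ratio of mTEC over cTEC for 24 of the 26 other ionocyte and intercalated cell genes with 95% counting intervals, and open triangles for lower bounds where the cTEC library had 0 reads. Most genes lie right of 0 in both genotypes, while Dmrt2, Tfcp2l1, Slc26a7 and Asgr1 lie near or left of it.

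Chloride channels and transporters in general were split. Of 10 such genes, 5 stood above 0 in mTEC over cTEC in the knockouts and 4 in the controls. The size rule counted Slc26a9, Clcn1 and Ano1 as higher in knockout mTEC and Slc26a9 and Clcn1 in control mTEC, and none as lower. Of all genes with enough reads, 19.8% were higher in the knockouts and 19.0% in the controls. Slc26a9, an epithelial anion transporter that interacts with CFTR, had 195 and 151 reads in knockout and control mTEC, against 16 and 26 in knockout and control cTEC. Slc12a2, the basolateral loader of chloride, had 1248 and 1177 reads in knockout and control mTEC, against 1975 and 1641. The median of the 10 was 0.00 in the knockouts and −0.04 in the controls, against −0.08 and −0.06 over all genes with 50 reads.

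Ordered per length, Foxi1 had the highest level in both mTEC libraries and Bsnd the lowest, with 0.826 RPKM in knockout mTEC and 0.639 in control mTEC. In knockout mTEC the interval of Foxi1 lay above that of Ascl3, the next gene at 1.71 RPKM, and no other neighbours were separated. In control mTEC and in both cTEC libraries no neighbours in the order were separated by their intervals. In both cTEC libraries the order began with Atp6v1b1. The deposited length of Atp6v1b1 is 4381 bases and its longest GENCODE transcript 1999, and by the transcript length its level would be 3.45 in knockout mTEC and 3.38 in control mTEC, beside 3.72 and 2.89 for Foxi1.

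Across the 4 libraries the pattern of each gene with 50 reads was compared with 15760 others, by the root mean square difference of the centred log2 levels. With 4 points, of which 2 are mTEC, the measure is a description. The 3 nearest to Cftr were Slc37a1, S100a14 and Msi1 (differences of 0.02 each), and those nearest to Atp6v1b1 were Kif24, Tnfrsf10b and Tmem19 (0.02 to 0.03). Foxi1 was nearest to Mslnl, Akr1b7 and Il13 (0.06 to 0.08), and Mroh7 and Psg20 were among the 3 nearest to Foxi2 (0.14 each). For Atp6v0d2 the nearest were Shisa9, Tnfrsf13c and Nuggc, and for Bsnd Frmpd3, Slc36a2 and Bmp3 (0.04 to 0.05 in both cases). Within 0.25 lay 986 genes for Atp6v1b1 and 21 for Foxi2. Among the ionocyte genes themselves, without Ascl3, which had under 50 reads, Foxi1 and Bsnd were the closest pair, at 0.12. Foxi2 and Atp6v1b1 were the farthest, at 1.59. The closeness of Foxi1 and Bsnd was not particular to them, since 236 of the 15760 genes lay within 0.25 of Foxi1. Bsnd had only 4 reads in each cTEC library.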

How the data were processed

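Bulk RNA sequencing libraries of sorted mouse thymic epithelium were compared, 1 per group. Gene counts, not normalized, were deposited by the authors. The submitters' processing notes name featureCounts 1.5.0-p3, HISAT2 2.0.5, CASAVA and the build mm10. The sources used here state no annotation release, strand setting or handling of multiply mapped reads. Per the file headers, the table also holds a gene length in bases, of another (other) unit, which was used for levels per length.

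The 7 genes and all gene lists were chosen with earlier results of these data known. Counts were scaled by the trimmed mean of M-values (TMM, edgeR 4.0.16, R 4.3.3), with factors of 0.966 to 1.03. Log2 ratios carry a prior count of 0.5 and exact binomial 95% intervals, and levels exact Poisson intervals; these and the floor of 3 reads measure counting error alone, since reads are not independent molecules. Differences of log2 ratios have Wald intervals. The size rule needs 50 reads in the pair, 2-fold and an interval without 0, and these calculations were tested on simulated counts. Named genes were the 7, list members by the size rule or as extremes or partners, and the 3 nearest patterns per gene with 50 reads. Aqp6, Dmrt2, Tfcp2l1, Slc26a7, Foxi3, Atp6v1g3, Atp6v1c2, Atp6v1g2, the general subunits Atp6v1b2 and Atp6v0d1, Pou2f3 and Foxj1 were named outside this rule, after their values were seen. A few genes that the rule selects are not reported here. Coordinates of all 7 genes equal those of GENCODE M21 (GRCm38). Of their longest transcripts, only Cftr had 50-base windows found in another gene (1.56%). Python 3.11.15, numpy 2.4.6, pandas 2.3.3, scipy 1.17.1 and matplotlib 3.10.9 were used.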

Additional observations from a re-analysis of the deposited data

Results flagged for a closer look

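For 3 of the 7 genes the ratio of SCD1 knockout over control pointed in opposite directions in mTEC and cTEC, each population being 1 library per genotype, and the difference was not tested. Foxi1 had a log2 ratio of 0.36 in mTEC and −0.20 in cTEC, a difference of 0.56 (counting interval −0.54 to 1.67). Bsnd had 0.37 and −0.20, a difference of 0.56 (−1.44 to 2.57), and Atp6v0d2 −0.16 and 0.09, a difference of −0.25 (−2.13 to 1.63). The cTEC values rest on 14, 4 and 4 to 5 reads per library. Foxi1 and Bsnd had equal reads in both cTEC libraries, so that their cTEC ratio of −0.20 is the difference in library scaling alone and gives no direction of its own.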

How the results depend on the processing

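Leaving out a replicate was not run, since each group is 1 library. Depth limits Ascl3, Bsnd and most cTEC values, which rest on few reads. No paired analysis was possible because the groups share fewer than 2 replicate numbers. An additive fit of genotype and population would keep 1 residual degree of freedom, which sets populations and not replicates against each other, and it was not run. Of 112 member ratios recomputed under other scalings and prior counts, all lay inside their counting intervals, and 1 changed sign (Cftr between genotypes in mTEC). With a prior count of 2, the Foxi2 ratios against 1 control cTEC read moved by over 1.5-fold, to 3.93 in control mTEC over control cTEC and to 1.02 in knockout over control cTEC. Scaling by library totals moved all mTEC over cTEC ratios by 0.09 in each genotype.

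The count of genes past the size rule between genotypes in mTEC was 154, and 992 with no minimum of reads, 19 with a minimum of 200 reads and 594 at 1.5-fold. In cTEC it was 173, against 1182, 20 and 675 under the same settings. For mTEC against cTEC it was 4592 in the knockouts, against 8136, 2515 and 7161, and 4333 in the controls, against 7790, 2353 and 6857. Of the 7 genes, 5 passed in mTEC against cTEC in each genotype. With a minimum of 200 reads only 1 passed in each genotype, Cftr, because the others had fewer reads than that in the pair.

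The order of the 7 genes by level depended on length. Without length, 1 gene kept its place in each mTEC library and 2 in control cTEC. With the length of the longest transcript, chosen after seeing the data, 4 kept their place in knockout mTEC and 3 in control mTEC. With a prior count of 2, the 3 nearest patterns shared 1 gene with those named for Foxi1, Foxi2 and Atp6v0d2 and 0 for Bsnd; the cause was not tested.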
